A study of Homo sapiens with 8 samples.

Results

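The H3K27ac peaks described here surround the chemokine genes CXCL8, CXCL1, CXCL5 and CXCL2, the growth factor genes EREG and AREG, and the cytokine gene IL6 in A549, an established human lung adenocarcinoma line. They were chosen by position, with earlier results of these data known, as all peaks overlapping chromosome 4 from 74.55 to 75.4 Mb (the CXCL window) or chromosome 7 from 22.7 to 22.85 Mb (the IL6 window) on hg19. There were 201 such peaks of 186774 in the 4 lists on chromosomes 1 to 22 and X. Of these, 42 came from the library of cells given CEBPB siRNA-1, 51 from CEBPB siRNA-2, 51 from control 1 and 57 from control 2. Peaks of different libraries that overlapped were merged, which gave 58 regions of 60669 in all, 53 in the CXCL window and 5 in the IL6 window.

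CEBPB is a basic leucine zipper transcription factor, and the study asked how enhancers of this NRF2-activated line depend on it. In the knockdown group, A549 cells were transfected with CEBPB siRNA-1 or with CEBPB siRNA-2, with 1 H3K27ac library for each. In the control group they received a control siRNA, again with 2 libraries. All cells were grown in serum-containing medium, which was renewed after 24 h, and were collected after another 24 h. Separate cultures are not stated in the labels, so the 2 controls may differ for technical reasons only, while the knockdown libraries also differ in the siRNA used. How far CEBPB itself was lowered was not measured by these libraries, and the cell line was not checked against marker genes, because no hg19 annotation was used here.

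H3K27ac is a histone acetylation found at active promoters and enhancers. CXCL8, CXCL1, CXCL5 and CXCL2 are secreted chemokines that attract neutrophils through the receptor CXCR2, and CXCL8 also acts through CXCR1. EREG and AREG encode epiregulin and amphiregulin, which are released from membrane-bound precursors and activate the EGF receptor. IL6 encodes a cytokine that signals through IL6R and gp130 to STAT3, and CEBPB was first described as a factor that binds the IL6 promoter. In many cell types the chemokine genes and IL6 are induced by inflammatory signals through NF-kB, often together with C/EBP and AP-1 factors.

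The promoter sequences of the 7 genes show which letters of these factors' motifs lie just before each start, whether or not acetylation was called there. RefSeq (GRCh38.p14) had a promoter for each of the 7 genes, and the 170 bases before the start are printed 5′ to 3′ on the gene's strand. Capitals mark matches, on either strand, to GGNNTTTCC (NF-kB), TTNNGCAA or its shorter form TNNGCAA (C/EBP), TGANTCA (AP-1) and TGACGTCA (CRE, bound by CREB and ATF factors). The shorter C/EBP form lies within the longer one wherever the longer one matches.
CXCL8 (chr4:73740399-73740568, plus strand): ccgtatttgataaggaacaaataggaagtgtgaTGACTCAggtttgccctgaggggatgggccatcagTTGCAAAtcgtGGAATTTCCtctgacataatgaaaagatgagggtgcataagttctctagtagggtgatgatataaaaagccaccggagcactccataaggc
CXCL1 (chr4:73869223-73869392, plus strand): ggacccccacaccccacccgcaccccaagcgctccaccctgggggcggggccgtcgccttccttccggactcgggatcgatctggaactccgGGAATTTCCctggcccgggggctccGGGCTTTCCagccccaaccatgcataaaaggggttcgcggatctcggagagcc
CXCL5 (chr4:73998678-73998847, minus strand): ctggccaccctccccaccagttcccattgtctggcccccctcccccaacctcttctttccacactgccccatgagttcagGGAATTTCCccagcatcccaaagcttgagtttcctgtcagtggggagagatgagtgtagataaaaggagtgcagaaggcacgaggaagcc
CXCL2 (chr4:74099196-74099365, minus strand): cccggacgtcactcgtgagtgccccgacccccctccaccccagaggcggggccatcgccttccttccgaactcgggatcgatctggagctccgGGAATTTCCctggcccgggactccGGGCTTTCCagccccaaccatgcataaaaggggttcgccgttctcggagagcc
EREG (chr4:74364975-74365144, plus strand): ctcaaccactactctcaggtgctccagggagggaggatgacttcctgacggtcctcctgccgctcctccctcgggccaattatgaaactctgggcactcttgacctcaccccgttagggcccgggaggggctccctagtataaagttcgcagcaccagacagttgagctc
AREG (chr4:74444966-74445135, plus strand): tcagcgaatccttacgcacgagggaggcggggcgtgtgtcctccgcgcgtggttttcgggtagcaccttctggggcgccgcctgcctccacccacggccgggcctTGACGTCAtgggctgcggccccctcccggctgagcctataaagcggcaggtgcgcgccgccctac
IL6 (chr7:22727030-22727199, plus strand): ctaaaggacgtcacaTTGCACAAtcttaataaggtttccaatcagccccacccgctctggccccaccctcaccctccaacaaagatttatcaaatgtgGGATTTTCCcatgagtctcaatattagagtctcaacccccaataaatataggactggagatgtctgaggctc
The NF-kB letters lay in 5 of the 7 promoters, those of CXCL8, CXCL1, CXCL5, CXCL2 and IL6, and in 3.89% of 35116 RefSeq promoter stretches of the same length. In CXCL1 and in CXCL2 they occurred at 2 places, and the EREG stretch held none of the motifs. The longer C/EBP form matched in IL6 alone of the 7, as TTGCACAA from 155 to 148 bases before the start, and in 5.77% of all stretches. The shorter form matched in IL6 and in CXCL8, as TTGCAAA from 102 to 96 bases before the start of CXCL8, and in 20.2% of all stretches. AP-1 letters lay in CXCL8 (4.65% of all stretches), and the CRE lay in AREG (1.48%). The 300-base promoters of CXCL1 and CXCL2 were 71.9% identical, with at most 42 bases in a row shared, under the read length of 101 bases. No other pair among the 7 shared more than 11 bases in a row. The promoter of CXCL3, a chemokine gene outside the 7, was 82.5% identical to that of CXCL1 and 73.8% to that of CXCL2. The longest runs it shared with them were 25 and 37 bases. Sequence outside these promoters was not compared. These sequences were matched by gene name and not by position to the hg19 peaks.

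In the CXCL window less DNA lay under H3K27ac peaks after CEBPB knockdown. Called length, the summed length of a library's peaks, was 66.1 kb with siRNA-1, 85.6 kb with siRNA-2, 114 kb in control 1 and 111 kb in control 2. Both knockdown libraries lay below both controls, and the siRNA-1 library lay lowest. The mean was 75.8 ± 13.7 kb after knockdown and 112 ± 2.14 kb in controls (SD, n = 2 each), a ratio of 0.677. The means differed by more than the replicates of either group did (two-sided exact permutation test, p = 0.33, which is the smallest that 2 libraries against 2 can give, here and in every such test). Over chromosomes 1 to 22 and X called length was not lower after knockdown: it was 70.4 and 61.7 Mb with the siRNAs, against 67.9 and 62.1 Mb in the controls.

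Peak length separated the treatments in the CXCL window, and the peak count, not scaled to list size, did not. The peaks numbered 38 and 48 with the siRNAs, against 47 and 53 in the controls, and these groups overlapped. Mean peak length there was 1740 bp and 1782 bp with the siRNAs, against 2416 bp and 2086 bp in the controls. Read depth is unknown for these lists, which carry no read counts, so a stretch without a peak is not a stretch without acetylation.

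**Figure D1:**
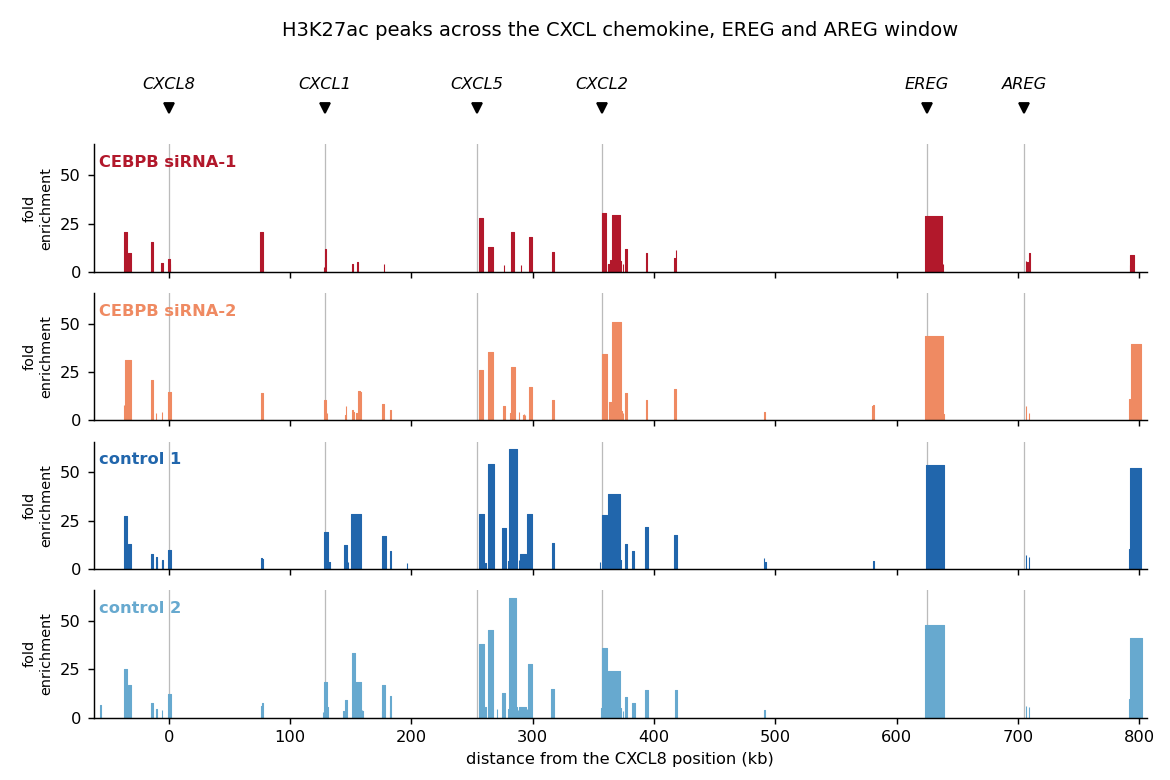
H3K27ac peaks of the CXCL window in 4 libraries, by distance from the CXCL8 position (x axis, kb). Each block spans a peak, and its height is the authors' fold enrichment at the summit, which belongs to its own list; peaks were narrower between CXCL1 and CXCL2 with the siRNAs, while the wide EREG block was present in all 4, and a siRNA-1 peak that starts past the right edge is not drawn.

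Most regions called in all 4 libraries were shorter with both siRNAs. The CXCL window held 25 such regions, and called length was below both controls with both siRNAs in 17 of them (68%), where 25.6% of the 24133 regions of the genome called in all 4 were. It was above both controls in 2, where 26.9% of all were, and the groups overlapped in 6. Over both windows 18 of 28 regions were shorter and 3 longer. The longer ones were 8 of 33 without siRNA-1 (34.5% of all regions), 7 of 30 without siRNA-2 (46.3%) and 5 of 28 without control 2 (32.5%). The median ratio of mean called length, knockdown over control, was 0.834 in the window and 1.01 over all regions. In 7 of the 28 regions of both windows called in all 4, mean called length after knockdown was at most 0.5 times that of the controls, against 5.01% of all.

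Lost calls gave no stable difference from the genome. Both controls had a peak in 36 regions, and 3 of these were called with neither siRNA (8.33%), near the 13.3% over the genome. No region was called with both siRNAs and in neither control, where 13.6% of all regions called with both siRNAs were. The 3 lost regions lay 6.77 kb and 25.7 kb from the CXCL5 position and 24.9 kb from the CXCL2 position. The last of these (chromosome 4, 74987876 to 74989975) was the longest, at 1827 bp in control 1 and 1973 bp in control 2, with fold enrichments of 9.19 and 7.66. Of the other 27 regions, 19 were called in only 1 library: 9 in control 1, 6 in control 2, and 2 with each siRNA. A further 5 were called in both controls and with siRNA-2 but not with siRNA-1. The genome shares of these call patterns were not counted, so they show no difference of the windows from the genome. The 19 regions of a single library were at most 487 bp long, with fold enrichments up to 7.45. With peaks at a −log10 q of 10 or more the windows lost a larger share than the genome, 5 of 27 (18.5%), against 10.4% of all. Leaving out control 1, 18 of 53 regions were lost (34.0%), against 22.4% of all. Without control 2 it was 13 of 46 (28.3%), against 24.0%, and without siRNA-2 it was 8 of 38 (21.1%), against 19.3%.

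**Figure D2:**
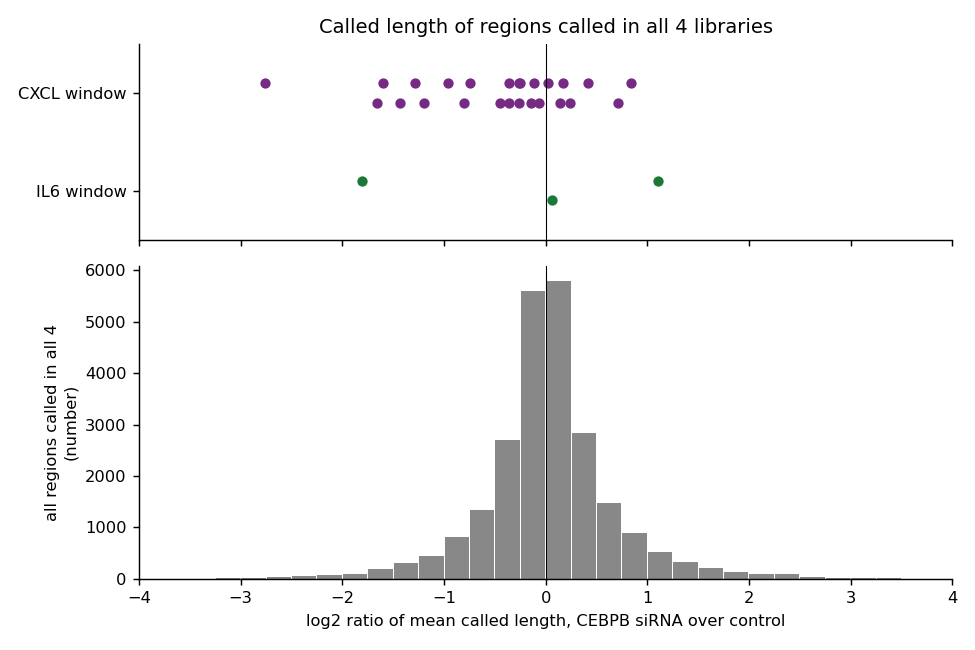
Log2 ratio of mean called length, CEBPB siRNA over control, for regions called in all 4 libraries (x axis). Points in the upper panel are the 25 regions of the CXCL window and the 3 of the IL6 window, offset vertically only for legibility; bars below count all 24133 regions, with values past the axis in the end bars, and the CXCL points reach further to the left than to the right.

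Regions within 12500 bp of each other were joined, which gave 16 stretches that touch the CXCL window, the first and last of which take in peaks outside it. Of the 12 called in all 4 libraries, 7 had shorter called length with both siRNAs than in both controls and 1 had longer, against 26.1% and 28.4% of the 16017 such stretches over the genome. The stretch beside the rounded CXCL5 position and the stretch holding CXCL1 made up 40.5% and 28.1% of the difference summed over these stretches (-35.8 kb, knockdown minus control). RefSeq (GRCh38.p14) places CXCL3, a further chemokine gene, between CXCL5 and CXCL2, and PF4 and PPBP, which encode platelet chemokines, between CXCL1 and CXCL5. These genes were not placed on the hg19 stretches. A stretch named here by CXCL5 or CXCL1 may therefore hold other genes too.

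**Figure D3:**
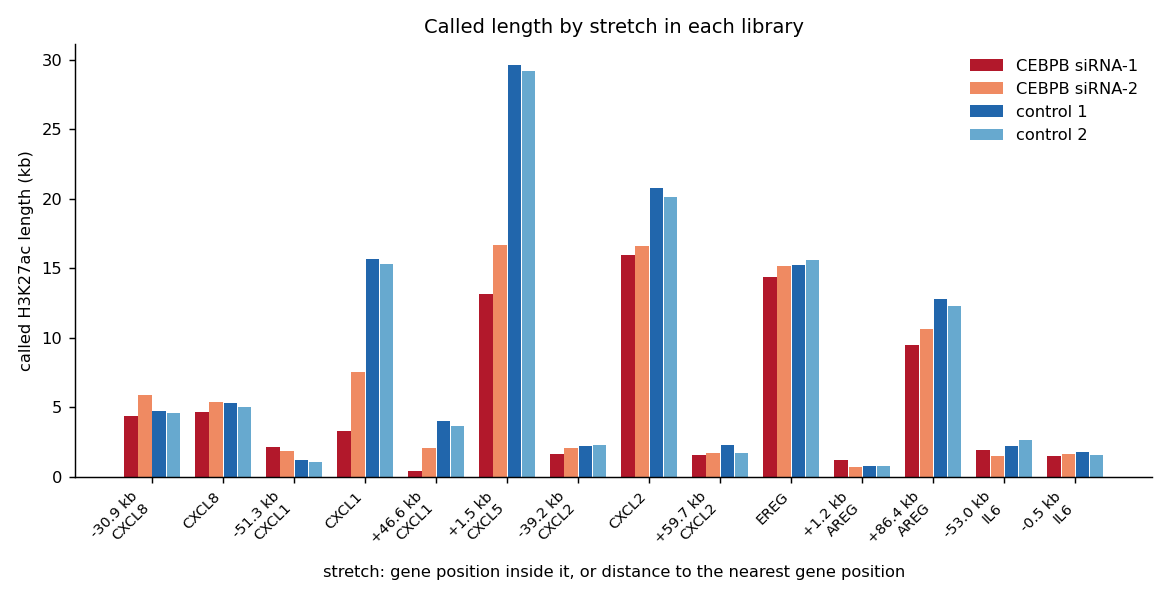
Called H3K27ac length (y axis, kb) in each of the 14 stretches called in all 4 libraries, 12 in the CXCL window and 2 in the IL6 window, with 1 bar per library. Labels give the gene position inside a stretch or the distance to the nearest position; the widest gaps between siRNA and control bars are at CXCL1 and CXCL5.

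At CXCL8, the gene of the neutrophil attractant interleukin 8, called length overlapped between the treatments. Within 10 kb of its position 3.13 kb and 2.69 kb was called with the siRNAs, against 3.47 and 2.97 kb in the controls. The region over the CXCL8 position (chromosome 4, 74604919 to 74607559) had 1521 and 2379 bp called with the siRNAs, against 2426 and 2589 bp in the controls, so both knockdown values were lower, that of siRNA-2 by little. Its fold enrichments were 6.55 and 14.5 with the siRNAs, and 9.92 and 12.2 in the controls.

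On either side of CXCL8 a region stood higher in the order with the siRNAs. Fold enrichments depend on the depth of each library. They are printed side by side, but differences between lists were not tested and are not read as changes. The same 25 regions of the CXCL window can be put in order within each list. A region 13.0 kb before CXCL8 (chromosome 4, 74590948 to 74593043) was number 10 with siRNA-1 and number 9 with siRNA-2, against numbers 21 and 20 in the controls. Its fold enrichments were 15.5 and 20.9 with the siRNAs, and 7.55 and 7.66 in the controls, while its called length overlapped between the groups. A region 51.3 kb before CXCL1 (chromosome 4, 74681569 to 74683727) was longer with both siRNAs, at 2159 and 1832 bp, against 1177 and 1059 bp in the controls. It stood at numbers 6 and 14 with the siRNAs, against 24 and 20 in the controls. In control 2 both regions had a fold enrichment of 7.66 and are tied at number 20. RefSeq places CXCL6 among the genes between CXCL8 and CXCL1.

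At CXCL1, which encodes the chemokine also known as GRO alpha, called length was lower with both siRNAs. Within 10 kb of its position it was 1.96 and 2.53 kb with siRNA-1 and siRNA-2, against 4.11 and 4.07 kb in the controls. The means were 2.25 ± 0.402 kb after knockdown and 4.09 ± 0.0233 kb in controls (SD, n = 2 each), a ratio of 0.549 (two-sided exact permutation p = 0.33). The region over the position (chromosome 4, 74733585 to 74737578) had 1963 and 2531 bp called with the siRNAs, against 3777 and 3750 bp in the controls.

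The block of acetylation beyond CXCL1 was shortened by more base pairs than any other region of the windows. This region (chromosome 4, 74756050 to 74764829), 21.1 kb from the CXCL1 position, had 1305 bp and 4002 bp called with the siRNAs, against 8780 bp in control 1 and 8019 bp in control 2. The groups did not overlap, and the ratio of means was 0.316. In control 1 it was a single peak and in control 2 it was 2 peaks, while siRNA-1 had 2 peaks and siRNA-2 had 6 inside it. By fold enrichment it stood at numbers 20 and 12 of 25 with the siRNAs, against 6 and 7 in the controls.

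Regions on either side of that block went the same way. A region 15.6 kb from CXCL1 (chromosome 4, 74750626 to 74753118) had no peak with siRNA-1 and 1006 bp with siRNA-2, against 2493 and 2231 bp in the controls. Another, 46.6 kb from CXCL1 (chromosome 4, 74781589 to 74784646), had 420 and 1534 bp with the siRNAs, against 2766 and 2524 bp in the controls. Both were lower with each siRNA than in each control, and both were lowest with siRNA-1. The whole stretch holding CXCL1 and the block had 3.27 and 7.54 kb called with the siRNAs, against 15.7 and 15.3 kb in the controls, a ratio of 0.349.

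The rounded position of CXCL5, which encodes the epithelial chemokine ENA-78, lay 1.46 kb outside the stretch with the most called length in controls. As that position is given to 10 kb only, the gene itself may lie inside the stretch. That stretch (chromosome 4, 74861458 to 74905341) had 13.1 kb and 16.6 kb called with the siRNAs, against 29.6 and 29.1 kb in the controls. Its means were 14.9 ± 2.49 kb after knockdown and 29.4 ± 0.351 kb in controls (SD, n = 2 each), a ratio of 0.506 (two-sided exact permutation p = 0.33). All 6 of its regions called in all 4 libraries were shorter with both siRNAs, as were 25.6% of such regions over the genome. The stretch was singled out after its values were seen.

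Within that stretch the shortening was uneven. Gene positions are rounded, that of CXCL5 to 10 kb, so distances from it are approximate. Nearest to CXCL5, 1.46 kb from its position, a region (chromosome 4, 74861458 to 74866597) had 3517 and 3439 bp called with the siRNAs, against 4721 and 4800 bp in the controls. Next to it, a region 8.86 kb away (chromosome 4, 74868862 to 74873804) had 3863 and 4238 bp with the siRNAs, against 4902 and 4773 bp in the controls. These 2 regions, with ratios of 0.731 and 0.837, were the least shortened of the stretch.

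The highest peak of the CXCL window in both controls lay 26.4 kb from CXCL5. Its region (chromosome 4, 74886431 to 74892940) had fold enrichments of 20.4 and 27.8 with the siRNAs, and of 62.3 and 62.0 in the controls. It stood at numbers 8 and 7 of the 25 regions with the siRNAs, against number 1 in both controls. Called length there was 3257 and 3150 bp with the siRNAs, against 6510 and 5921 bp in the controls. Within each list this peak region thus lost its place at the top with both siRNAs.

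Beyond it, a broad low region (chromosome 4, 74895055 to 74900221) had the lowest ratio of the 28 regions called in all 4, at 0.148. It had 288 and 1234 bp called with the siRNAs, against 5134 and 5158 bp in the controls. Its fold enrichments were low everywhere, 3.47 and 3.49 with the siRNAs, and 7.72 and 5.52 in the controls. A region 20.9 kb from CXCL5 (chromosome 4, 74880902 to 74883917) had 236 and 1963 bp called with the siRNAs, against 3010 and 2354 bp in the controls. The siRNA-1 library was again the lower of the knockdown pair in both.

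**Figure D4:**
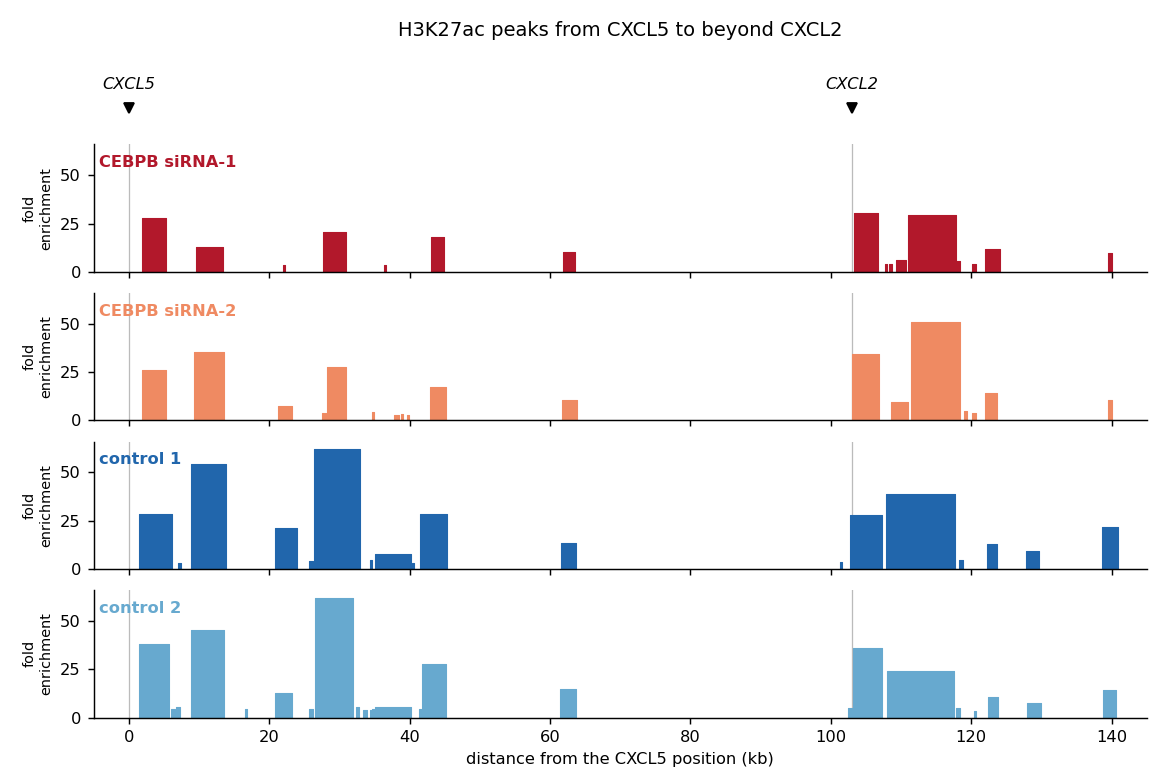
H3K27ac peaks from CXCL5 to beyond CXCL2, by distance from the CXCL5 position (x axis, kb), with the authors' fold enrichment of each peak as its height. The tallest control blocks, 62.3 and 62.0 near 30 kb, mark a region that is not the tallest with either siRNA, where the tallest blocks lie at CXCL2.

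CXCL2, which encodes the chemokine GRO beta, had a stretch that was shortened less. It had 15.9 and 16.6 kb called with the siRNAs, against 20.8 and 20.1 kb in the controls, a ratio of 0.797. The region over the CXCL2 position (chromosome 4, 74962434 to 74967259) had 3284 and 3877 bp with the siRNAs, against 4536 and 4672 bp in the controls. Its neighbour 4.72 kb away (chromosome 4, 74967723 to 74978781) had 9427 and 9454 bp with the siRNAs, against 10414 and 10056 bp in the controls. The CXCL2 regions headed the order with the siRNAs: the one over the position was number 1 with siRNA-1, and its neighbour was number 1 with siRNA-2, while in controls 1 and 2 the first of them was number 9 and 6 and its neighbour number 5 and 10.

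Further from CXCL2 single regions went in both directions. A region 35.7 kb away (chromosome 4, 74998677 to 75000903) had 655 and 653 bp called with the siRNAs, against 2227 and 1735 bp in the controls, a ratio of 0.330. Another, between that one and CXCL2 (chromosome 4, 74981995 to 74984081) was longer with both siRNAs, at 2087 and 1725 bp, against 1442 and 1412 bp in the controls. It was 1 of the 2 regions of the CXCL window that were longer in both knockdown libraries.

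EREG, which encodes epiregulin, lay in the least shortened of the 17 shorter regions. The region over its position (chromosome 4, 75229462 to 75245282), the longest of the window, had 14347 bp and 15160 bp called with the siRNAs, against 15229 and 15597 bp in the controls. Both siRNA values were lower, but the ratio of means was 0.957. It was number 3 and number 2 with the siRNAs, against numbers 3 and 2 in the controls. Within 10 kb of the EREG position called length was slightly higher with the siRNAs, 11.4 ± 0.132 kb, against 11.3 ± 0.0707 kb in controls (SD, n = 2 each), while within 25 kb it was lower, 14.8 kb against 15.4 kb.

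AREG, the amphiregulin gene, had little called length near its position in any library. Within 10 kb 1.22 and 0.699 kb was called with the siRNAs, against 0.806 and 0.757 kb in the controls, and the groups overlapped. The nearest region (chromosome 4, 75312215 to 75312760), 1.22 kb from the position, had fold enrichments of 5.41 and 7.61 with the siRNAs, and 7.22 and 6.20 in the controls. Of the 6 gene positions in the CXCL window, AREG had the least called length within 10 kb in all 4 libraries.

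A strong region lay 87.5 kb beyond AREG, at the edge of the window (chromosome 4, 75398527 to 75407962). It had 7907 and 8777 bp called with the siRNAs, against 9134 and 9279 bp in the controls. With siRNA-1 it was split, so that a part past 75.4 Mb does not count in the window total. Counting all peaks of such regions, the CXCL window had 70.9 and 86.3 kb with the siRNAs, against 115 and 112 kb in the controls, a ratio of 0.692.

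In the IL6 window 3.43 and 3.11 kb was called with the siRNAs, against 3.97 and 4.24 kb in the controls. The means were 3.27 ± 0.228 kb after knockdown and 4.10 ± 0.192 kb in controls (SD, n = 2 each), a ratio of 0.797 with groups that did not overlap (two-sided exact permutation p = 0.33). Only 5 regions were called there, and 3 in all 4 libraries, so the total rests on few peaks. There were 4 and 3 peaks with the siRNAs and 4 in each control.

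At the IL6 position itself only 1 weak peak was called. It lay 0.494 kb before the position (chromosome 7, 22766130 to 22766506), in control 1 alone, with a fold enrichment of 4.20, and 23.8% of that list's peaks had a −log10 q no higher. The nearest region called in all 4 libraries lay 8.17 kb before the position (chromosome 7, 22757121 to 22758826). It had 1516 and 1602 bp called with the siRNAs, against 1410 and 1581 bp in the controls, and these overlapped.

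Further upstream of IL6 a pair of regions went in opposite directions. The one 53.0 kb before the position (chromosome 7, 22711905 to 22714050) had 579 and 540 bp called with the siRNAs, against 1908 and 2015 bp in the controls, a ratio of 0.285. The other, 59.3 kb before it (chromosome 7, 22706693 to 22707735), had 995 and 965 bp with the siRNAs, against 270 and 640 bp in the controls, a ratio of 2.15. In the first, fold enrichments were 2.85 and 5.77 with the siRNAs, and 12.3 and 13.5 in the controls. In neither region did the groups overlap.

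**Figure D5:**
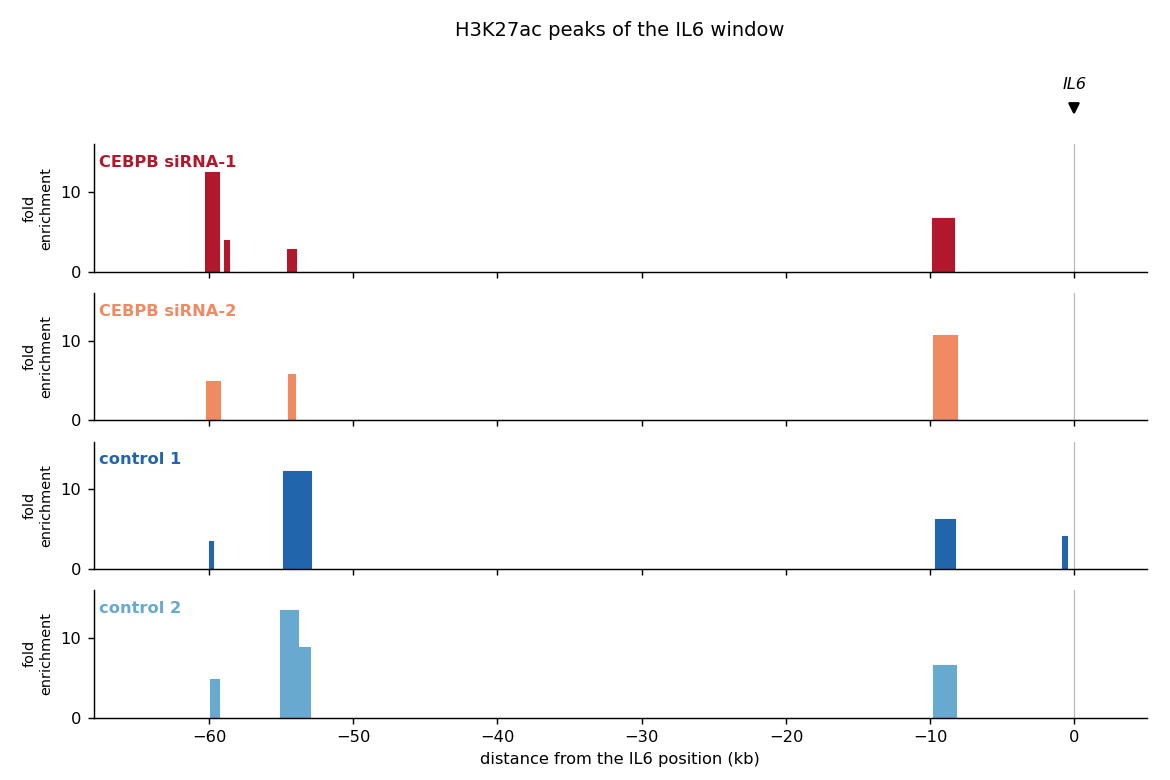
H3K27ac peaks of the IL6 window by distance from the IL6 position (x axis, kb), with the authors' fold enrichment of each peak as its height. The block near −54 kb is broad in both controls and narrow with both siRNAs, that near −60 kb is wider with the siRNAs, and a peak next to the position appears in control 1 alone.

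Ranked by called length within 10 kb of the position, mean over the controls, the genes ran EREG, CXCL2, CXCL5, CXCL1, CXCL8, IL6 and AREG, and both control values of each gene lay above both of the next. Both siRNA values lay below both control values at 3 of the 7 positions, CXCL1, CXCL5 and CXCL2, with ratios of 0.549, 0.634 and 0.774. Of 20987 bins of 20 kb over the genome called in all 4 libraries, 26.3% were lower with both siRNAs. Without siRNA-1 the count was 5 positions, against 45.5% of bins, and without control 2 it was 5, against 38.4%. At EREG both siRNA values, 11.4 and 11.5 kb, lay above both control values, 11.2 and 11.3 kb, as in 28.3% of bins. At CXCL8, AREG and IL6 the groups overlapped, which does not show that they were unchanged at this sample size. CXCL5 had 4.0 and 4.13 kb within 10 kb with the siRNAs, against 6.27 and 6.54 kb in the controls. Its position is given to 10 kb only, so these values, the ratio of 0.634 and its place in the ranking depend on that rounding. Within 5 kb of it the means were 3.16 kb with the siRNAs and 3.52 kb in controls, and within 25 kb 8.63 and 13.0 kb. The CXCL2 position had 7.35 and 7.89 kb with the siRNAs, against 10.0 and 9.70 kb in the controls.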

How the data were processed

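Single-end reads of 101 bases came from H3K27ac immunoprecipitation libraries, per the labels' protocols. The submitters' processing notes name hg19 as the build, MACS2 2.2.7.1 as peak caller, BWA 0.7.17 and SAMtools 1.7.0; no options are given, nor how the 4 input libraries, not analysed here, were used. Each deposited list belongs to 1 library and gives each peak's start, end, summit, fold enrichment (a linear ratio), −log10 p, −log10 q and score, all the authors' values; the score is 10 times the −log10 q, truncated, in nearly all peaks.

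Members and lists were chosen with earlier results of these data known. Overlapping peaks (1 bp or more) of chromosomes 1 to 22 and X were merged across libraries with Python 3.11.15 and pandas 2.3.3, and a library's called length in a region is the sum of its peaks there. Gene positions are those of the rule that defined the windows, given to 1 kb (CXCL5 to 10 kb), and may mark either end of a gene. Window and gene totals were compared by exact permutation tests, regions by counts beside the same share over all regions. By the naming rule the text names the 7 genes, the region nearest to each, and lost or gained regions; other regions were named after their values were seen. Lists of further chemokines, receptors, EGF-family ligands, NF-kB targets and cell type markers were not placed, since no hg19 annotation was used here. The merging and counting were tested on simulated lists.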

Additional observations from a re-analysis of the deposited data

How the results depend on the processing

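The lower called length of the CXCL window (-36.2 kb, knockdown minus control) kept its direction under all alternatives tried: it was -35.7 kb with peaks at a −log10 q of 10 or more, -36.5 kb with lists cut to equal called length (61.7 Mb), and from -45.9 to -26.5 kb without each library in turn. Added after seeing the data, clipping peaks at the window edges gave -32.3 kb, and leaving out the last stretch -32.2 kb. For the IL6 window (-0.833 kb) the range without each library was -0.994 to -0.672 kb. Differences in peak number ranged from -12 to -2 in the CXCL window and from -1 to 0 in the IL6 window without each library, 0 being without siRNA-2.

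Lost regions numbered 3 of 36 (8.33%, against 13.3% over the genome). They were 1 of 30 (3.33%, against 10.1%) when peaks within 1 kb were merged, and 0 of 16 (against 7.79%) when stitched within 12500 bp. At a −log10 q of 10 or more they were 5 of 27 (18.5%, against 10.4%), and at equal called length 1 of 31 (3.23%, against 11.1%). They numbered 3 to 18 without each library, 3 of 36 (8.33%, against 18.9%) being without siRNA-1. Gained regions numbered 0, and 0 to 2 without each library. Regions shorter with both siRNAs numbered 18 of 28 (genome share 25.6%). They were 14 of 24 when merged within 1 kb (25.7%) and 8 of 14 when stitched (26.1%). At a −log10 q of 10 or more they were 12 of 17 (24.6%), and at equal length 12 of 19 (24.7%). Without siRNA-1 they were 23 of 33 (45.6%), and without siRNA-2 21 of 30 (35.8%). Without control 1 they were 19 of 30 (29.2%), and without control 2 19 of 28 (38.4%). Longer ones numbered 3 (26.9%), and 3 when merged within 1 kb (27.5%). They numbered 1 when stitched (28.4%), 1 at a −log10 q of 10 or more (26.3%) and 2 at equal length (27.9%). Without each library they numbered 4 to 8 (32.5% to 46.3%). Stitching leaves fewer units, and leaving out a library requires fewer calls, by construction; the cause of the rise in lost regions in the stricter list was not tested. Genes with lower called length at both siRNAs numbered 3, and 3 to 5 without each library (5 without siRNA-1 and without control 2). Single genes reversed at EREG within 25 kb (-0.660 kb), at IL6 with a −log10 q of 10 or more (0.0635 kb) and at AREG without siRNA-1 (from -0.0825 to 0.440 kb without each library); the cause was not tested.

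The libraries share numbers in the labels, but only 2 pairs exist, and over 24133 regions the deviations of same-numbered libraries correlated at 0.0642. With the replicate block, differences within numbers averaged -36.2 kb in the CXCL window and -0.833 kb in the IL6 window (exact permutation p = 0.5 for each, the smallest that 2 pairs can give) and -7 and -0.5 peaks. Without read counts, depth sets how much of a weak region is called, and this was not corrected.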
